A study of Mus musculus with 8 samples.

Results

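The matrix metalloproteinases and their inhibitors are represented here by 10 genes, 6 metalloproteinases (Mmp2, Mmp3, Mmp8, Mmp9, Mmp14 and Mmp15) and the 4 tissue inhibitors Timp1, Timp2, Timp3 and Timp4. They were chosen by symbol, out of 55487 genes in the count table, and each symbol matched 1 identifier. RNA was sequenced from hearts of wild-type mice (WT) and of mice with a global deletion of Set7 (Set7KO) bred from heterozygous parents. Set7, the product of Setd7, is a lysine methyltransferase. Each genotype received saline, or isoproterenol, a beta-adrenergic agonist that stresses the heart, at 60 mg/kg under the skin on 14 consecutive days. The 4 groups were therefore WT saline, WT isoproterenol, Set7KO saline and Set7KO isoproterenol, with 2 libraries each; age and sex are not stated in the labels used here. Because the deletion is global, every cell type of the Set7KO hearts carried it. Nothing in the labels ties each library to a separate animal, so p-values measure only the spread between these samples, which may be technical.

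Matrix metalloproteinases (MMPs) are zinc-dependent enzymes that cut collagens, laminins, proteoglycans and other proteins outside the cell. Most are made as inactive precursors, and their activity is set by cleavage of a propeptide and by tissue inhibitors of metalloproteinases (TIMPs), which bind the active enzyme. In the heart, fibroblasts, endothelial cells, cardiomyocytes and invading leukocytes all contribute to the balance between these enzymes and inhibitors, which is known for its part in the turnover of the matrix during hypertrophy and fibrosis. Transcript levels, as measured here, do not report on enzyme activity.

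The promoters of 8 of the 10 genes were found in the RefSeq table for GRCm38.p6, Mmp2 and Mmp9 being the others. Bases before the annotated start of 3 of them are shown because these genes bracket what was measured: Mmp15 had the largest difference with isoproterenol in WT among members tested, Mmp3 is a classic target of the transcription factor AP-1, and Timp1, usually described as the inducible inhibitor, had among the smallest differences. Sequences run 5′ to 3′ on the strand of the gene, and capitals mark an AP-1 motif (TGANTCA), a GC box (GGGCGG, bound by factors of the Sp family) or a TATA box (TATAAA), on either strand. The Mmp3 stretch lies at chr9:7445722-7445821, plus strand, the Mmp15 stretch at chr8:95352166-95352265, plus strand, and the Timp1 stretch at chrX:20870056-20870165, plus strand. The Mmp3 and Timp1 stretches end 1 base before the start, while the Mmp15 stretch runs from 130 to 31 bases before it.
Mmp3: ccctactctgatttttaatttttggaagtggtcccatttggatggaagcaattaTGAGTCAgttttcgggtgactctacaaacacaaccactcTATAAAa
Mmp15: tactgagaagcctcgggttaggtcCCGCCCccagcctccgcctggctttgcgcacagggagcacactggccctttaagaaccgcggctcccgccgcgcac
Timp1: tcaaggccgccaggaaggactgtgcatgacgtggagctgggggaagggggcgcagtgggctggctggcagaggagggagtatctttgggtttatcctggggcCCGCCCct

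The 8 windows run from 250 bases before to 50 after the start, and only the 250 bases before it were searched. In these, Mmp3 alone held an AP-1 motif and a TATA box, and it held no GC box. Over the same 250 bases of all 32851 promoter windows, 6.75% held this AP-1 motif, 12.4% this TATA box and 32.7% this GC box. In the stretches printed, no motif overlaps another. The 250 bases before the start were 37.6% G or C for Mmp3 and 63.6% for Mmp15. A match of letters is a description of the window, and no binding was measured in these samples.

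Libraries held 27847069 to 51705705 counts. Setd7 stood at 43.0 to 72.6 CPM (library-size normalised counts, scaled by the TMM method) in the 4 WT libraries and at 3.79 to 5.70 CPM in the 4 Set7KO libraries, without overlap. The heart label was matched by cardiomyocyte genes: all 10 markers were detected in every library, with Myh6, the main myosin of the mouse ventricle, at 34980 to 52280 CPM. Set7KO saline replicate 2 stood apart: each of 9 neutrophil markers and 6 erythroid markers was highest there, and 14 of 18 genes for matrix proteins were lowest there. The share of all genes highest or lowest there is not given here. Sample titles carry a letter whose meaning the labels do not give. It is D for both WT isoproterenol libraries, A for both Set7KO isoproterenol libraries, C for both WT saline libraries and Set7KO saline replicate 2, and B for Set7KO saline replicate 1. Whatever it stands for cannot be told apart from the groups, and the 2 Set7KO saline libraries differ in it; values without Set7KO saline replicate 1 compare Set7KO with WT after saline within letter C. Libraries also differed in how levels followed the GC content of genes. The median deviation (log2) in the quintile of genes highest in GC minus that in the lowest quintile was 0.55 and 0.84 in WT saline, -1.05 and -0.76 in WT isoproterenol, 0.36 and -0.89 in Set7KO saline and 0.19 and 0.63 in Set7KO isoproterenol. The low values thus belonged to both WT isoproterenol libraries and to Set7KO saline replicate 2. For this reason results are also given from a fit with offsets for the GC content and length of each gene, which move the median of all genes from 0.06 to -0.05 (log2) in WT and from -0.05 to 0.11 in the interaction.

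Compared per kilobase of exon, the members fell into an abundant and a scarce set. Mmp15, Mmp2 and Timp2 averaged 38.7, 33.6 and 33.3 CPM per kb over the 8 libraries, and their ranges of 20.2 to 79.7, 13.4 to 45.2 and 21.6 to 40.4 overlapped broadly. Timp3 followed at 18.1 (8.10 to 29.9) and Timp4 at 6.55 (4.05 to 10.8). Timp1 and Mmp14 averaged 3.36 and 2.37 CPM per kb, with overlapping ranges of 2.22 to 5.02 and 1.45 to 4.15. Mmp3 at 1.21, Mmp9 at 0.706 and Mmp8 at 0.220 CPM per kb were the scarcest.

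**Figure D1:**
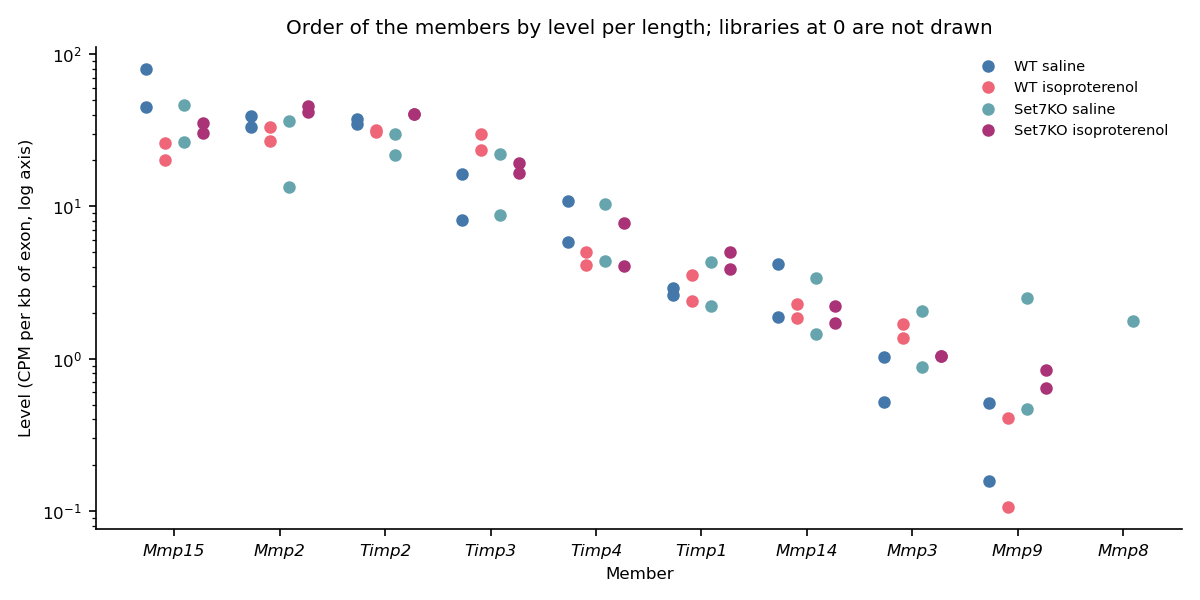
Level of each of the 10 members per kilobase of exon (vertical log axis, CPM per kb), 1 point per library, coloured by group; libraries at 0 are not drawn, so Mmp8 shows 1 point. Mmp15, Mmp2 and Timp2 lie at the top with overlapping ranges, and Mmp3, Mmp9 and Mmp8 at the bottom.

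The order at the top was not the same in each group. In WT saline Mmp15 led at 62.3 ± 24.6 CPM per kb (SD, n = 2), ahead of Mmp2 at 36.2 ± 4.37 and Timp2 at 35.9 ± 2.00. In WT isoproterenol 4 members lay close together: Timp2 at 31.2 ± 0.557, Mmp2 at 30.0 ± 4.54, Timp3 at 26.7 ± 4.44 and Mmp15 at 23.1 ± 4.15 CPM per kb. In Set7KO isoproterenol Mmp2 (43.3 ± 2.73) and Timp2 (40.3 ± 0.0830) led, and Mmp15 stood at 32.8 ± 3.60. The Set7KO saline libraries lay far apart, with Mmp15 at 36.4 ± 14.0 and Mmp2 at 25.0 ± 16.3 CPM per kb, so neighbours in that group cannot be ranked.

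In edgeR's quasi-likelihood test 9 of the 10 members could be tested, and 0 of 9 passed an adjusted p of 0.05 in any of 7 comparisons. For isoproterenol against saline in WT the same held for all genes (0%), and at an unadjusted p under 0.05 there were 2 members, Mmp15 lower and Timp3 higher, against 31.7% of the 17636 genes tested. In Set7KO 0% of genes passed the adjusted threshold, and at the unadjusted one there was 1 member, Timp2, against 9.66% of genes. Set7KO against WT after saline gave 1 member, Mmp9, at the unadjusted threshold against 10.3% of genes (0.00567% adjusted), and after isoproterenol 0 members against 19.9% (0.00567% adjusted). The interaction gave 2 members, Mmp15 and Timp2, against 30.6% (0% adjusted). Averaged over genotypes, isoproterenol gave 1 member, Mmp15, against 9.4% (0.051% adjusted), and averaged over treatments, Set7KO against WT gave 1 member, Mmp9, against 1.56% (0.00567% adjusted). These shares of members are close to the background or rest on 1 or 2 genes. By limma-voom 0 members passed the adjusted threshold in the 7 comparisons. By DESeq2 1 passed, Mmp15 in WT, where DESeq2 called 2719 of 17636 genes.

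**Figure D2:**
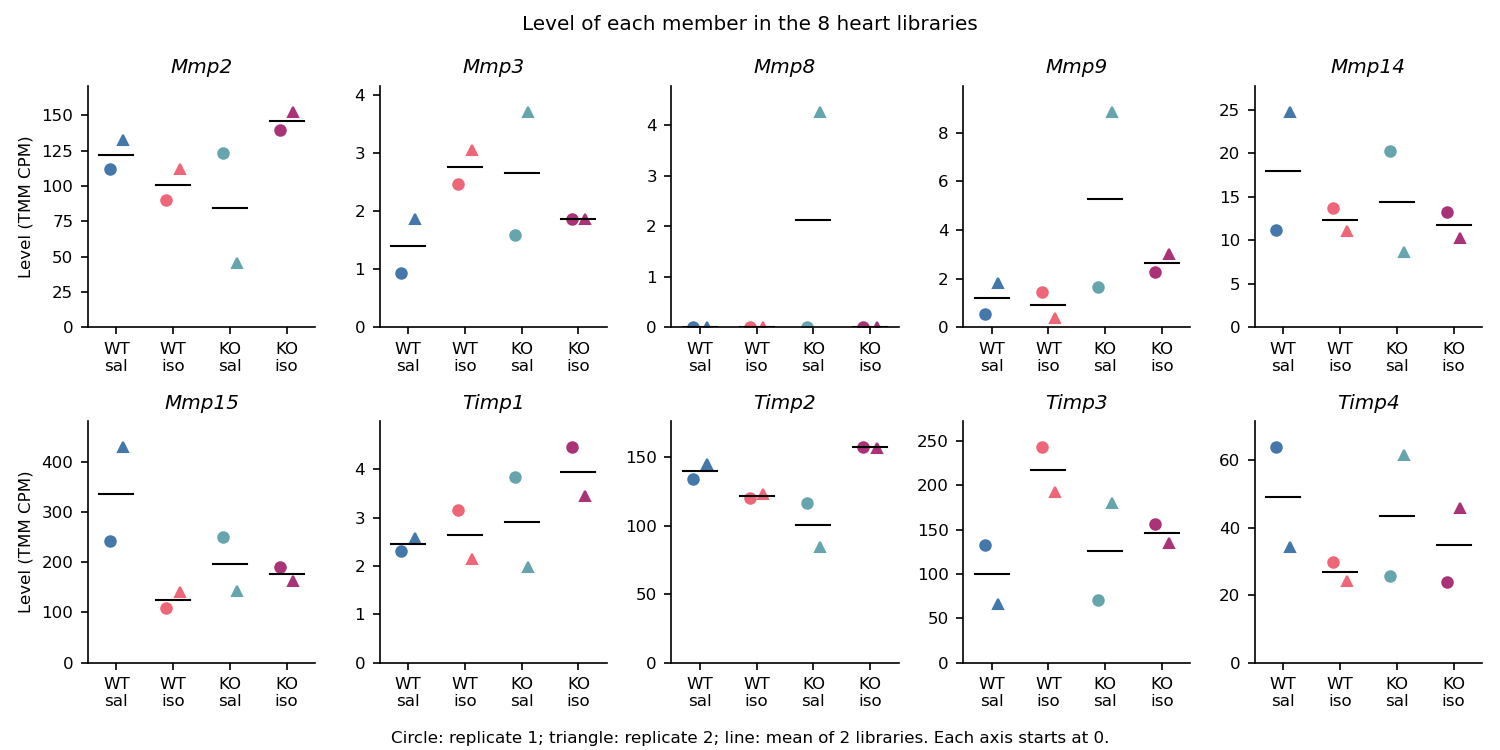
Level of each member in TMM CPM (vertical axes, each from 0) in the 4 groups; a circle is replicate 1, a triangle replicate 2 and the line the mean of the 2 libraries. Mmp15 is lower and Timp3 higher in both WT isoproterenol libraries than in both WT saline libraries, Timp2 is higher in both Set7KO isoproterenol libraries than in both Set7KO saline libraries, and Mmp8 and Mmp9 are highest in 1 Set7KO saline library.

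Mmp2 (chromosome 8, 92827291 to 92853420, GRCm38) encodes gelatinase A, which digests denatured collagen and basement membrane collagen and is made mainly by fibroblasts. Its level was 112 and 133 CPM in WT saline, 90.2 and 112 CPM in WT isoproterenol, 123.02 and 45.21 CPM in Set7KO saline, and 139.5 and 152 CPM in Set7KO isoproterenol. The Set7KO isoproterenol libraries were the highest of all 8, and Set7KO saline replicate 2 was far the lowest. In Set7KO the difference with isoproterenol was 0.80 ± 0.41 (log2 fold change ± SE; edgeR unadjusted p = 0.0844, adjusted p = 0.572). In WT it was -0.27 ± 0.40, and the 2 WT groups overlapped. The difference between the genotypes' responses was 1.07 ± 0.57 (unadjusted p = 0.0970, adjusted p = 0.227). Under GC and length offsets the difference in Set7KO was 0.75 ± 0.30 (unadjusted p = 0.0383, adjusted p = 0.505), that in WT 0.14 and the interaction 0.60 ± 0.42. After saline Mmp2 differed between Set7KO and WT by -0.54 ± 0.41 (unadjusted p = 0.219, adjusted p = 0.587). These values hung on Set7KO saline replicate 2: without it and without offsets the difference with isoproterenol in Set7KO was 0.25, the interaction 0.54 and the difference from WT after saline 0.04. Without replicate 1, when that library stood alone for its group, they were 1.69 (adjusted p = 0.0389), 1.97 (adjusted p = 0.00917) and -1.43 (adjusted p = 0.0338). In that library matrix protein genes summed to 2909 CPM against 4555 to 7607 CPM in the other 7, and 6 of 10 fibroblast markers were at their lowest. So were 7 of 15 activators, inhibitors and partners of MMPs, 5 of 8 smooth muscle and pericyte markers and 4 of 10 endothelial markers. For cardiomyocyte and macrophage markers the counts were 1 of 10 and 0 of 10. The share over all genes is not given here, and the part of these genes in the Mmp2 values was not tested. In whole hearts, fewer cells of a type and less RNA per cell cannot be told apart.

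Mmp9 (chromosome 2, 164940780 to 164955850) encodes gelatinase B, and Mmp8 (chromosome 9, 7558456 to 7568485) the neutrophil collagenase; neutrophils store both enzymes in their granules. Mmp9 stood at 0.560 and 1.82 CPM in WT saline, 1.45 and 0.375 CPM in WT isoproterenol, 1.66 and 8.85 CPM in Set7KO saline and 2.26 and 3.00 CPM in Set7KO isoproterenol. Mmp8 had 214 counts (4.27 CPM) in Set7KO saline replicate 2 and 0 counts in the other 7 libraries. Taking 3 counts per library as the most that 0 allows, which covers counting error only, Mmp8 was at least 38.1-fold higher in that library than in WT saline replicate 1 and at least 62.7-fold higher than in WT isoproterenol replicate 1. Both genes thus peaked in the same single library. Mmp8 was not tested, since the filter on low counts, which asks for counts in 2 libraries, removed it.

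Neutrophil markers peaked in the same library as these 2 genes. The 9 markers summed to 112 CPM in Set7KO saline replicate 2 and to 3.47 to 13.1 CPM in the other 7 libraries, 8.57 times the next highest. S100a9, a calcium-binding protein abundant in neutrophils, was at 65.7 CPM there and at most 7.13 CPM elsewhere, and Retnlg at 16.6 CPM against at most 1.29 CPM. Ly6g and Camp, 2 further markers of the list, were at 0 in the other 7 libraries. The 6 erythroid markers were also highest in that library, at a sum of 10520 CPM against at most 4351 CPM elsewhere. The neutrophil markers were named after their values were seen, and the part of either set in the Mmp8 and Mmp9 levels was not tested.

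**Figure D3:**
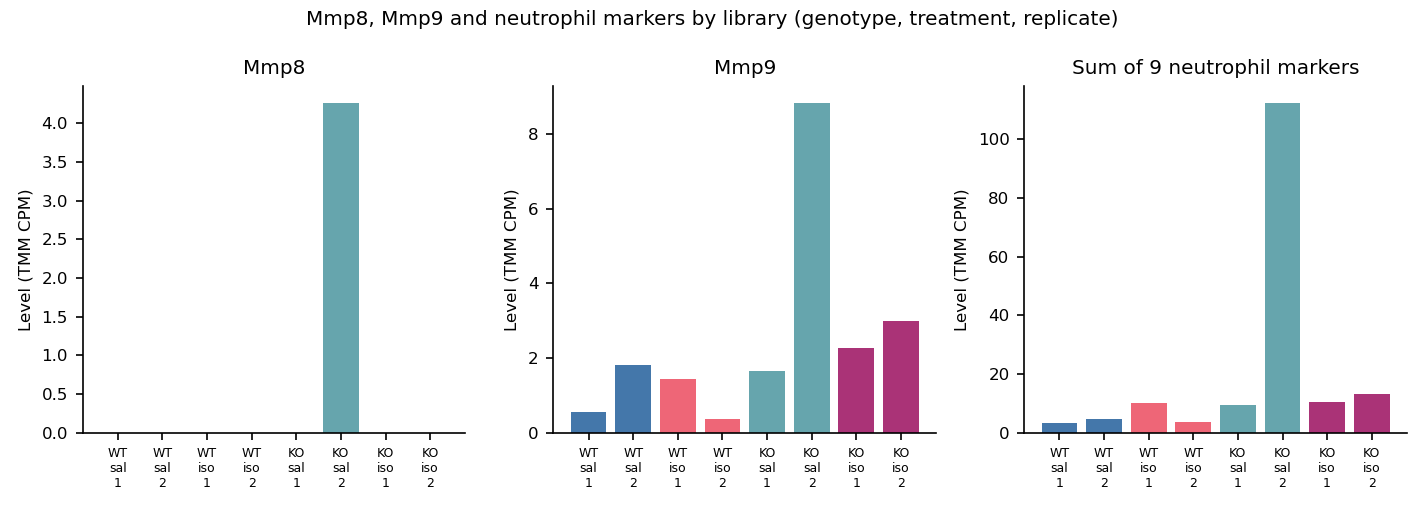
Levels in TMM CPM (vertical axes from 0) of Mmp8, of Mmp9 and of the sum of 9 neutrophil markers in each of the 8 libraries, coloured by group. All 3 are highest in Set7KO saline replicate 2, with 4.27 CPM for Mmp8, 8.85 CPM for Mmp9 and 112 CPM for the markers.

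Apart from that library, Mmp9 was at 1.66 to 3.00 CPM in the Set7KO libraries and at 0.375 to 1.82 CPM in the WT libraries. Averaged over treatments Mmp9 was higher in Set7KO than in WT by 1.82 ± 0.63 (log2; edgeR unadjusted p = 0.0189, adjusted p = 1.00), and after saline alone by 2.14 ± 0.89 (unadjusted p = 0.0413, adjusted p = 0.483). Without Set7KO saline replicate 2 these differences were 1.01 and 0.49. Isoproterenol against saline gave -0.37 ± 0.90 in WT and -1.01 ± 0.84 in Set7KO, and the latter was 0.67 without Set7KO saline replicate 2.

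Mmp3 (chromosome 9, 7445822 to 7455975) encodes stromelysin 1, which cuts proteoglycans, laminin and fibronectin and can activate other MMPs. It was scarce, at 0.933 and 1.86 CPM in WT saline, 2.47 and 3.06 CPM in WT isoproterenol, 1.59 and 3.71 CPM in Set7KO saline and 1.87 CPM in both Set7KO isoproterenol libraries. Both WT isoproterenol libraries lay above both WT saline libraries, while in Set7KO the isoproterenol libraries lay between the saline ones. The difference with isoproterenol was 0.98 ± 0.48 in WT (edgeR unadjusted p = 0.0747, adjusted p = 0.193) and -0.52 ± 0.47 in Set7KO, and the interaction -1.50 ± 0.67 (unadjusted p = 0.0560, adjusted p = 0.172). With GC and length offsets these were 0.33, -0.13 and -0.46. After saline Mmp3 was higher in Set7KO than in WT by 0.93 ± 0.48 (adjusted p = 0.502), and by 0.21 without Set7KO saline replicate 2.

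Mmp15 (chromosome 8, 95352268 to 95375080) encodes a membrane-anchored metalloproteinase, MT2-MMP, which can activate the Mmp2 precursor at the cell surface. Its level was 243 and 430 CPM in WT saline, 109 and 141 CPM in WT isoproterenol, 249.7 and 143 CPM in Set7KO saline and 191 and 163 CPM in Set7KO isoproterenol. Both WT isoproterenol libraries were below every other library, with Set7KO saline replicate 2 next. In WT Mmp15 was 2.70-fold lower after isoproterenol (log2 fold change -1.43 ± 0.36 SE, 95% interval -2.25 to -0.61; edgeR unadjusted p = 0.00354, adjusted p = 0.0941). In Set7KO the difference was -0.15 ± 0.35 (interval -0.95 to 0.65). The interaction was 1.28 ± 0.50 (unadjusted p = 0.0314, adjusted p = 0.136), and averaged over genotypes isoproterenol gave -0.79 ± 0.25 (unadjusted p = 0.0124, adjusted p = 0.359). After saline the difference of Set7KO from WT was -0.78 ± 0.35 (adjusted p = 0.485).

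The WT difference in Mmp15 passed the adjusted threshold with DESeq2 (adjusted p = 0.00277), with no filter on low counts (0.022) and in a fit of the 2 WT groups alone (0.027). In that comparison DESeq2 called 2719 of 17636 genes, the fit without a filter 1512 of 29066 and the fit of the WT groups 5043 of 16988. It did not pass with limma-voom (0.088) or with DESeq2 size factors in edgeR. Without Set7KO saline replicate 1 or 2 the difference was -1.43 and -1.44. Mmp15 transcripts are 59.6% G or C, above 94.9% of the genes tested, and the 3 libraries with a GC trend below 0 had its 3 lowest levels. Among the 5 libraries with a trend above 0 the levels did not keep the order of the trend. With GC and length offsets the WT difference was -0.87 ± 0.29 (unadjusted p = 0.0163, adjusted p = 0.208), the interaction 0.55 ± 0.40 and the difference averaged over genotypes -0.60 ± 0.20 (unadjusted p = 0.0185).

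**Figure D4:**
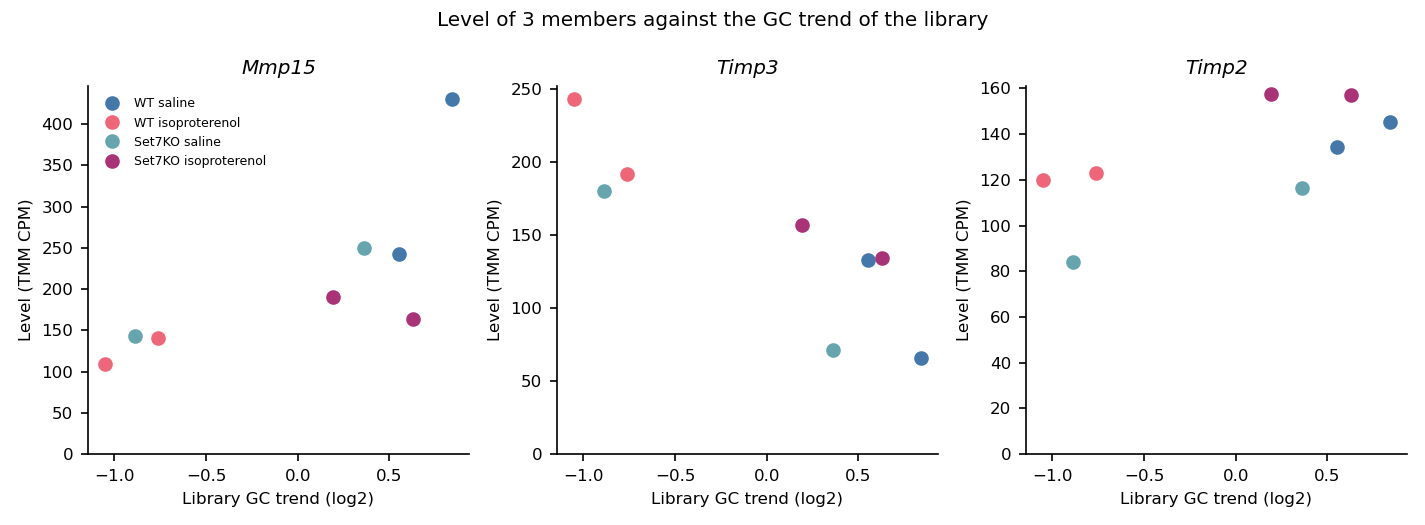
Level of Mmp15, Timp3 and Timp2 in TMM CPM (vertical axes from 0) against the GC trend of the library (horizontal axis, median log2 deviation of the quintile of genes highest in GC minus that of the lowest quintile), 1 point per library, coloured by group. The 3 libraries with a trend below 0 have the 3 lowest levels of Mmp15, 109 to 143 CPM, and the 3 highest levels of Timp3, 180 to 243 CPM.

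Mmp14 (chromosome 14, 54431612 to 54445364) encodes MT1-MMP, the main activator of the Mmp2 precursor and itself a collagenase. It was at 11.2 and 24.8 CPM in WT saline, 13.7 and 11.1 CPM in WT isoproterenol, 20.2 and 8.61 CPM in Set7KO saline and 13.3 and 10.3 CPM in Set7KO isoproterenol. The groups overlapped throughout, and the saline replicates differed more from each other than the groups did. Isoproterenol against saline gave -0.54 ± 0.47 in WT (95% interval -1.62 to 0.54) and -0.29 ± 0.47 in Set7KO (-1.37 to 0.79).

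Timp1 (chromosome X, 20870166 to 20874735) encodes the inhibitor that is induced by cytokines and injury in many tissues and is widely used as a fibrosis marker. It was at 2.31 and 2.59 CPM in WT saline, 3.15 and 2.14 CPM in WT isoproterenol, 3.84 and 1.97 CPM in Set7KO saline and 4.46 and 3.44 CPM in Set7KO isoproterenol. The groups overlapped in WT and in Set7KO. Isoproterenol against saline gave 0.11 ± 0.39 in WT (95% interval -0.79 to 1.01) and 0.45 ± 0.39 in Set7KO (-0.44 to 1.34).

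Timp2 (chromosome 11, 118301069 to 118355740, minus strand) encodes an inhibitor that also joins Mmp14 and the Mmp2 precursor in the complex in which Mmp2 is activated. It varied least of the members, at 134 and 145 CPM in WT saline, 119.92 and 122.995 CPM in WT isoproterenol, 116 and 84.2 CPM in Set7KO saline and 157 CPM in both Set7KO isoproterenol libraries. The Set7KO isoproterenol libraries were the highest of the 8 and the Set7KO saline libraries the lowest. In Set7KO Timp2 was 1.57-fold higher after isoproterenol (0.65 ± 0.22, 95% interval 0.15 to 1.15; edgeR unadjusted p = 0.0167, adjusted p = 0.478), and in WT the difference was -0.20 ± 0.22 (interval -0.70 to 0.29). The interaction was 0.85 ± 0.31 (unadjusted p = 0.0232, adjusted p = 0.124). After saline Timp2 stood lower in Set7KO than in WT (-0.48 ± 0.22, adjusted p = 0.485). With GC and length offsets the difference in Set7KO was 0.56 ± 0.16 (unadjusted p = 0.00854, adjusted p = 0.429), that in WT 0.11 and the interaction 0.45 ± 0.23. Without Set7KO saline replicate 2 the difference in Set7KO was 0.44 (unadjusted p = 0.0737).

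Timp3 (chromosome 10, 86300372 to 86349506) encodes the inhibitor that stays bound to the matrix and also blocks ADAM and ADAMTS proteinases. It was at 133 and 65.9 CPM in WT saline, 243 and 192 CPM in WT isoproterenol, 71.0 and 180 CPM in Set7KO saline and 157 and 135 CPM in Set7KO isoproterenol. Both WT isoproterenol libraries were above every other library, and the Set7KO isoproterenol libraries lay between the Set7KO saline ones. In WT Timp3 was 2.19-fold higher after isoproterenol (1.13 ± 0.46, 95% interval 0.07 to 2.18; edgeR unadjusted p = 0.0388, adjusted p = 0.140), and in Set7KO the difference was 0.21 ± 0.45 (interval -0.83 to 1.25). Averaged over genotypes it was 0.67 ± 0.32 (unadjusted p = 0.0703, adjusted p = 0.571). With GC and length offsets the differences were 0.50 ± 0.39 in WT and 0.53 ± 0.39 in Set7KO. Timp3 transcripts are 46.8% G or C, and the 3 libraries with a GC trend below 0 had its 3 highest levels. Without Set7KO saline replicate 1 the WT difference was 1.13, and without replicate 2 the Set7KO difference was 1.04.

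Timp4 (chromosome 6, 115241892 to 115252205, minus strand) encodes an inhibitor that is expressed more in the heart than in most other tissues. In these hearts its mean level per kilobase was nevertheless below those of Timp2 and Timp3. It was at 63.9 and 34.2 CPM in WT saline, 29.7 and 24.2 CPM in WT isoproterenol, 25.7 and 61.4 CPM in Set7KO saline and 23.9 and 45.8 CPM in Set7KO isoproterenol. Both WT isoproterenol libraries lay below both WT saline libraries, and the Set7KO groups overlapped. Isoproterenol against saline gave -0.86 ± 0.49 in WT (95% interval -1.97 to 0.25; edgeR unadjusted p = 0.112, adjusted p = 0.239) and -0.32 ± 0.48 in Set7KO. With GC and length offsets the WT difference was -1.30 ± 0.50 (unadjusted p = 0.0317, adjusted p = 0.257), so that the offsets moved Timp4 away from 0 and Mmp15 and Timp3 toward it.

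Timp1, Timp3 and Timp4 each lie inside a synapsin gene on the opposite strand, Syn1, Syn3 and Syn2. Exons of Timp3 and Syn3 share 1733 bases and those of Timp4 and Syn2 share 90. The kit keeps strand, but no source used here gives whether counting used it, so reads in shared bases cannot be assigned to 1 gene with certainty. Syn3 was at 0.151 to 0.738 CPM and Syn2 at 2.32 to 3.72 CPM in these libraries, below Timp3 and Timp4 throughout.

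**Figure D5:**
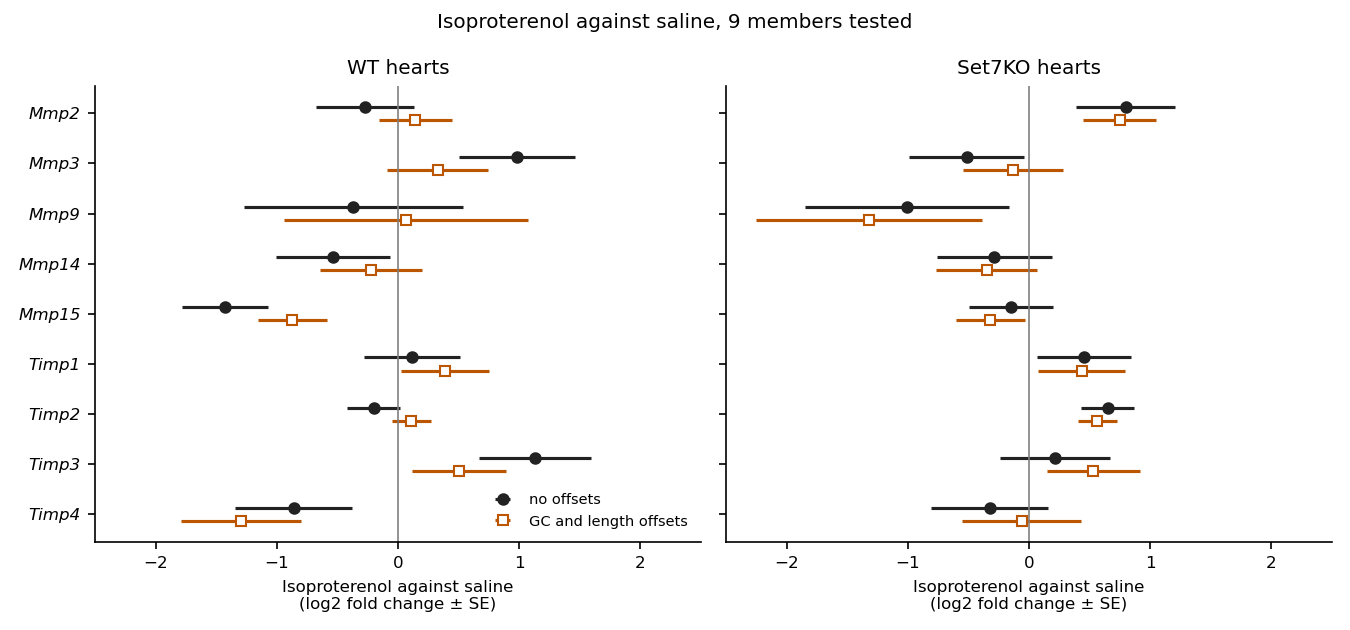
Log2 fold change of isoproterenol against saline (horizontal axis, bars show 1 SE) for the 9 members tested, in WT (left) and Set7KO hearts (right); filled circles are without offsets and open squares with GC and length offsets. In WT, Mmp15 moves from -1.43 to -0.87 and Timp3 from 1.13 to 0.50 with the offsets, and Timp2 in Set7KO stays at 0.65 and 0.56.

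Enzymes and inhibitors were also set against each other within each library, as a description with no test. The summed level per kilobase of the 6 MMPs over that of the 4 TIMPs was 1.26 and 2.31 in WT saline, 0.737 and 1.02 in WT isoproterenol, 1.85 and 0.846 in Set7KO saline and 1.17 and 1.16 in Set7KO isoproterenol. Both WT isoproterenol libraries were below both WT saline libraries, and the Set7KO saline libraries lay on either side of both Set7KO isoproterenol libraries. Timp3 made up 25.4% and 15.0% of the summed TIMP level in WT saline and 43.1% and 38.2% in WT isoproterenol. In Set7KO its share was 18.4% and 39.3% after saline and 28.0% and 24.1% after isoproterenol, so the Set7KO groups overlapped. The libraries with a GC trend below 0, both of WT isoproterenol and Set7KO saline replicate 2, had the lowest ratios and the highest Timp3 shares. Ratios and shares were taken without offsets, and the part of the GC trend in them was not tested. With GC and length offsets Timp3 differed by 0.50 in WT and 0.53 in Set7KO. The ratio of Timp2 to Mmp2, the pair that meets in the activation complex, was steadier, at 0.819 to 1.15 in 7 libraries and 1.61 in Set7KO saline replicate 2.

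For the 4 members that varied most among those with a mean of at least 1 CPM, which leaves out Mmp8, the genes with the most similar profile over the 8 libraries were sought among 11824 genes, by the root mean square difference of centred log2 levels. The nearest to Mmp9 were Fgr (0.56), Slc4a1 (0.57) and Csf3r (0.63); Csf3r, the receptor for granulocyte colony-stimulating factor, and Slc4a1, the anion exchanger of red cells, are in the neutrophil and erythroid marker lists. Those nearest to Mmp15 were Hyou1, a chaperone of the endoplasmic reticulum (0.13), Hdhd3 (0.13) and Acsf2, a mitochondrial acyl-CoA synthetase (0.17). Those nearest to Timp3 were Lin52 (0.20), the scaffold protein gene Ahnak (0.20) and the cytokine gene Il33 (0.21), and those nearest to Timp4 were Gadd45g (0.26), Kif28 (0.27) and Map3k6 (0.28). The likeness is a description over 8 libraries that differ in the GC trend, and the part of that trend in it was not tested.

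Genes around the members were counted in 6 lists, for isoproterenol averaged over genotypes. edgeR and limma-voom called 0 genes in each list at an adjusted p under 0.05, in this comparison and in WT, so the counts here are at an unadjusted p under 0.05, beside 9.4% of all genes averaged over genotypes and 31.7% in WT. Counts with GC and length offsets are given beside them. With offsets 1833 of all 17636 genes tested passed averaged over genotypes and 2902 in WT. At an adjusted p under 0.05 DESeq2 called 251 of 17636 genes averaged over genotypes and 2719 in WT. Of 17 other MMP genes, 7 were tested and 5 had 0 counts in all libraries. Averaged over genotypes 0 of 7 passed, in WT 1 was lower, and DESeq2 called 0 in both. With offsets 2 were higher averaged over genotypes and 1 was higher in WT, with 0 lower in both. Mmp11, stromelysin 3, stood at 8.75 to 17.0 CPM and differed by 0.31 ± 0.18 (0.48 ± 0.12 with offsets, edgeR unadjusted p = 0.00394, adjusted p = 0.217), and Mmp19 stood at 2.17 to 3.73 CPM and differed by 0.29 ± 0.22.

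Among 15 activators, inhibitors and partners of MMPs, 3 were higher and 3 lower averaged over genotypes, and 2 were higher and 2 lower in WT; the median was -0.14 averaged over genotypes against 0.02 for all genes. With offsets 3 were higher and 1 lower averaged over genotypes, and 0 were higher and 2 lower in WT. Serpine2, or protease nexin 1, an inhibitor of thrombin and of plasminogen activators, was at 18.8 to 27.9 CPM in the 4 saline libraries and 36.8 to 43.9 CPM in the 4 isoproterenol libraries, without overlap (0.86 ± 0.16, edgeR unadjusted p = 0.000513, adjusted p = 0.143). With offsets Serpine2 differed by 0.63 ± 0.12 averaged over genotypes, by 0.26 ± 0.17 in WT and by 1.01 ± 0.18 in Set7KO. Bsg, or basigin, a surface protein known to induce MMPs, differed by -0.51 ± 0.14 averaged over genotypes (adjusted p = 0.311) and by -0.97 ± 0.20 in WT, where saline libraries stood at 2090 and 2661 CPM and isoproterenol libraries at 1202 and 1218 CPM. With offsets the WT difference of Bsg was -0.43 ± 0.22. DESeq2 called Serpine2 averaged over genotypes, and 3 genes of the list in WT.

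Among 18 ADAM and ADAMTS genes, the related proteinases that Timp3 also inhibits, 1 was higher and 3 lower averaged over genotypes, and 2 were higher and 3 lower in WT. With offsets 0 were higher and 3 lower averaged over genotypes, and 1 was higher and 1 lower in WT. Adamts1, a versican-cutting proteinase, was at 20.7 to 40.4 CPM in the saline libraries and 9.22 to 19.7 CPM in the isoproterenol libraries (-0.98 ± 0.26, edgeR unadjusted p = 0.00447, adjusted p = 0.261). Adamts4 was at 4.94 CPM in 1 saline library of each genotype and at 0.331 CPM or less in the other 6 (-3.45 ± 1.03, adjusted p = 0.327), so its difference rested on those libraries. DESeq2 called both, and 4 genes of the list in WT.

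Among 10 genes for cathepsins and cystatin C, 1 was higher averaged over genotypes and 1 lower in WT. With offsets 1 was higher and 1, Ctss, lower averaged over genotypes, and 3 were lower in WT. Ctsk, cathepsin K, a collagen-cutting enzyme, was at 4.33 to 5.92 CPM in the saline group of either genotype and at 6.87 to 11.1 CPM in the isoproterenol groups (0.70 ± 0.20, edgeR unadjusted p = 0.00715, adjusted p = 0.316). Ctss, cathepsin S, differed by -0.43 ± 0.22, and by -0.60 ± 0.22 with offsets (unadjusted p = 0.0248, adjusted p = 0.397). DESeq2 called 0 genes averaged over genotypes and 1 in WT.

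Of 18 genes for matrix proteins that MMPs can cut, 2 were higher and 0 lower averaged over genotypes, and 2 were higher and 1 lower in WT. With offsets 1 was higher averaged over genotypes and 0 of 18 passed in WT. The count averaged over genotypes changed when either Set7KO saline library was left out, and so did the count over all genes. Dcn, decorin, a small proteoglycan that binds collagen, was at 86.2 and 121 CPM in WT saline and 377 and 276 CPM in WT isoproterenol, a difference of 1.65 ± 0.42 (edgeR unadjusted p = 0.00402, adjusted p = 0.0941), and in Set7KO it differed by -0.08 ± 0.41. With offsets Dcn differed by 0.09 ± 0.42 in WT and by 0.78 ± 0.42 in Set7KO. Lama2, a laminin chain of the muscle basement membrane, differed by 1.02 ± 0.32 in WT and 0.47 ± 0.32 in Set7KO, and with offsets by 0.41 ± 0.20 and 0.71 ± 0.20. Averaged over genotypes 4 of 10 fibroblast markers, a list that also holds Dcn, and 3 of 10 markers of activated fibroblasts were higher and 0 lower; their part in these values was not tested. DESeq2 called 0 of the list averaged over genotypes and 2 in WT.

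Of 14 tested cytokines and transcription factors that regulate MMP and TIMP genes, 0 were higher and 5 lower averaged over genotypes, and 1 was higher and 3 lower in WT, with a median of -0.31 averaged over genotypes. With offsets 0 were higher and 4 lower averaged over genotypes, and 0 were higher and 3 lower in WT. Without Set7KO saline replicate 2 more of the list were lower averaged over genotypes, and more of all genes passed too. Leukocyte and red cell markers were counted in the same way. Averaged over genotypes 5 of 7 lymphocyte, 3 of 9 macrophage, 1 of 6 neutrophil and 5 of 6 erythroid markers tested were lower and 0 higher. Their medians were -1.31, -0.28, -0.59 and -1.27. In WT 6 lymphocyte, 3 macrophage, 0 neutrophil and 4 erythroid markers were lower. In Set7KO these counts were 0, 0, 3 and 5, beside 3 genes of the cytokine and transcription factor list and 9.66% of all genes in either direction. The neutrophil and erythroid counts leaned on Set7KO saline replicate 2, where the markers summed to 112.5 and 10520 CPM. Replicate 1 had 9.39 and 4232 CPM. The Set7KO isoproterenol libraries had 10.5 and 13.1 CPM for neutrophil and 4351 and 2681 CPM for erythroid markers. The lymphocyte markers summed to 6.96 to 13.1 CPM in the saline libraries and 2.66 to 8.22 CPM in the isoproterenol libraries, the macrophage markers to 267 to 401 and 166 to 363 CPM, and the erythroid markers to 3768 to 10520 and 1254 to 4351 CPM. The part of these cells in the list's values was not tested. Fos, which encodes a subunit of AP-1, was at 12.2 CPM in Set7KO saline replicate 1, at 1.34 to 3.88 CPM in the other saline libraries and at 0.431 to 1.42 CPM after isoproterenol (-2.42 ± 0.67 averaged over genotypes, edgeR adjusted p = 0.306). Il1b, interleukin 1 beta, an inducer of several MMP genes, was at 2.60 and 2.71 CPM in Set7KO saline and at 0.231 to 0.783 CPM in the other 6 libraries. In Set7KO it differed by -1.91 ± 0.42 with isoproterenol (edgeR unadjusted p = 0.00174, adjusted p = 0.369), and after saline it was higher in Set7KO than in WT by 2.70 ± 0.45 (unadjusted p = 0.000264, adjusted p = 0.483). Il1b reached the mean of 1 CPM asked of named genes only through the Set7KO saline libraries. Neither difference therefore counts as support for a change in that group. Unlike Mmp8 and Mmp9, Il1b was at a like level in both Set7KO saline libraries. DESeq2 called 2 genes of the list averaged over genotypes and 2 in WT.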

How the data were processed

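The deposited table holds raw read counts per gene for 8 libraries; per the submitters' processing notes HISAT2, HISAT, StringTie, edgeR and the GRCm38 genome were used, with versions and roles not given in the sources used here. Per the labels, a TruSeq stranded mRNA kit was used. Columns not used numbered 0. Symbols, positions, exonic length and GC content came from GENCODE M21, which named 55227 of 55487 identifiers, and promoters from RefSeq.

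Counts were fitted with edgeR 4.0.16 in R 4.3.3 (TMM, filterByExpr, a mean per group over all 8 libraries, two-sided quasi-likelihood F-tests, Benjamini-Hochberg within each of 7 contrasts). The precision was set by 4 residual and 4.36 prior degrees of freedom. The biological coefficient of variation was 28.4%. SEs and 95% intervals derive from the F statistic. Code was tested on simulated data. Alternatives were DESeq2 1.42.0 and its size factors, limma-voom 3.58.1, no filter, only the groups compared, offsets from splines of GC content and length, and leaving out each library.

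Members and lists were chosen with earlier results of these data known. Named were all members, Setd7, the 2 genes of each pathway list (mean of at least 1 CPM) with the smallest p for isoproterenol averaged over genotypes, and the 3 genes most like the 4 most variable members (mean of at least 1 CPM).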

Additional observations from a re-analysis of the deposited data

How the results depend on the processing

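With 2 libraries per group, single libraries decide many values. The number of members past an adjusted p of 0.05 for isoproterenol against saline in WT was 0 in the edgeR fit and 1 with no filter, with DESeq2 or with only the groups compared, and 0 to 2 when 1 library was left out. Leave-one-out counts ran from 0 to 2 for isoproterenol in Set7KO, 0 to 2 for Set7KO against WT after saline and 0 to 4 for the interaction. Each highest count came without Set7KO saline replicate 1, when replicate 2, the library with the neutrophil markers, stood alone for its group, with the spread taken from the other groups.

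Signs were followed for 29 member differences. These were all differences with isoproterenol in WT or in Set7KO, and from the other comparisons only those with an edgeR unadjusted p under 0.1. Of 457 alternative values for them, 431 kept their sign and 26 changed it. Differences picked by p lay away from 0 from the outset, so the count is no measure of robustness for the members in general. With GC and length offsets the WT difference turned to 0.14 for Mmp2, 0.07 for Mmp9 and 0.11 for Timp2. Each library was left out in turn without those offsets, and only the Set7KO saline libraries with them. Leaving out a library in this way gave WT differences of -0.44 to 0.14 for Mmp2, -1.67 to 0.70 for Mmp9, -1.01 to 0.11 for Mmp14, -0.20 to 0.37 for Timp1 and -0.26 to 0.11 for Timp2. In Set7KO it gave -0.99 to 0.34 for Mmp3, -2.13 to 0.75 for Mmp9, -0.78 to 0.45 for Mmp14, -0.49 to 0.31 for Mmp15, -0.31 to 1.06 for Timp3 and -0.87 to 0.52 for Timp4. For Mmp3 it gave -0.10 to 1.53 for Set7KO against WT after saline and -2.05 to 0.04 for the interaction. Mmp15 in WT stayed between -1.79 and -0.86 in these fits, none of which left out a WT library with offsets. The cause was not tested.

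Counts of all genes called moved far more. With DESeq2, no filter and GC offsets they were 2719, 1512 and 3 for isoproterenol in WT (edgeR 0; 5043 with only the groups compared, 3 with DESeq2 size factors, 0 to 3765 leaving out a library), 101, 31 and 0 in Set7KO (0; 0 to 486), 21, 19 and 1 for Set7KO against WT after saline (1; 0 with only the groups compared, 0 to 1030), 297, 3 and 1 after isoproterenol (1; 1303 with only the groups compared, 0 to 2), and 2321, 1686 and 0 for the interaction (0; 0 to 5778). Averaged over genotypes they were 251, 159 and 15 (9; 14 with limma-voom, 0 to 42), of which 8 were higher and 7 lower with offsets against 2 and 7 without. Averaged over treatments they were 2, 2 and 1 (1; 1 to 2). No paired analysis was possible because the labels carry no replicate numbers shared between groups; the unexplained letter in the titles is shared by both WT saline libraries and 1 Set7KO saline library only.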
